A study of Bos taurus with 4 samples.

Results

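Genes named for bone and cartilage were followed through retinoid treatment of fat cell precursors: SPP1, IBSP, MGP, ALPL, TNFRSF11B, ACAN, COMP, RUNX2 and SOX9. They were taken as every probe whose gene name on the array was one of these 9 symbols, which gave 17 of 43653 probes, for 7 of the 9 genes. RUNX2 and SOX9, the transcription factors that direct bone and cartilage formation, had no probe of that name and were not analysed here. A probe was tested if all 3 arrays of some group read it well above background. That held for 11 of the 17 probes, of 5 genes, among 31205 such probes in all. The other 6 probes are described by their signals.

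The cells were bovine intramuscular preadipocytes, precursors of the fat that lies within skeletal muscle. The ATRA group was harvested on day 6 of adipogenic culture with all-trans retinoic acid at 1 µM, and the 9cRA group on day 6 with 9-cis retinoic acid at 1 µM. The day 6 control group had the same culture without retinoid, and the day 0 group was harvested at the start. All day 6 groups shared one adipogenic medium, Dulbecco's modified Eagle's medium with insulin (50 ng/mL), dexamethasone (0.25 µM), octanoate (5 mM), acetic acid (10 mM) and 10% fetal bovine serum plus penicillin and streptomycin, renewed every 2 days. The question named in the series title is what vitamin A does to expression in these cells as they turn into fat cells. Each group is 1 sample in the labels with 3 arrays. The labels do not say whether these held separate cultures, so the p-values reflect array-to-array spread alone, possibly technical, and the number of arrays limits the precision.

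ATRA and 9cRA are stereoisomers of the acid form of vitamin A that act through nuclear receptors. Mineralized tissue is built on a matrix of collagen and acidic glycoproteins, among them osteopontin (SPP1) and bone sialoprotein (IBSP), while matrix Gla protein (MGP) keeps soft tissue and cartilage from calcifying and tissue-nonspecific alkaline phosphatase (ALPL) removes pyrophosphate, an inhibitor of mineral. Aggrecan (ACAN) is the large proteoglycan and COMP a pentameric glycoprotein of cartilage, and osteoprotegerin (TNFRSF11B) is a decoy receptor for the osteoclast factor RANKL. Several of these proteins are also made outside the skeleton: SPP1 by macrophages and epithelia, MGP by vascular and stromal cells.

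All 9 preadipocyte and stromal markers examined were well above background on all 12 arrays, as were 3 of 6 adipocyte markers (PPARG, CEBPA and FABP4), whereas the late marker ADIPOQ was so on none. The fatty acid carrier FABP4 differed from day 6 control by -4.94 ± 0.11 with ATRA and -4.64 ± 0.11 with 9cRA (log2, SE), both called by limma, and rose by 4.34 ± 0.11 in day 6 control against day 0. The other 3 tested adipocyte markers, PPARG, CEBPA and PLIN1, were called with neither retinoid against day 6 control. PPARG had a mean log2 signal of -0.51 with ATRA, -0.46 with 9cRA, -0.52 in day 6 control and -2.33 at day 0. Signals are given on the log2 scale relative to the 75th percentile of their array, so 0 is the signal of the probe at that percentile, and means carry the SD over n = 3 arrays. Day 6 control array 1 had the lowest share of spots well above background, 64.8% against up to 74.0%, and carried 103 non-uniform spots, where no other array had more than 2. Slides separated the groups in part: day 6 control array 1 shared its slide with all day 0 arrays, day 6 control arrays 2 and 3 lay beside ATRA arrays 1 and 2, and ATRA array 3 lay beside all 9cRA arrays. 9cRA and day 6 control therefore shared no slide, and neither retinoid shared one with day 0.

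SPP1 rose strongly with both retinoids. Its single probe lies on chromosome 6 at 38121014 to 38121073 of the UMD3.1 bovine genome, on the minus strand. It is shown because every SPP1 value rests on this 60-base sequence, with a GC content of 38.3%.
SPP1 probe: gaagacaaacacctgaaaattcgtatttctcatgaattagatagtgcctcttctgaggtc
The log2 signal was 5.97, 5.92 and 6.04 on the ATRA arrays, 5.88, 6.08 and 6.03 on the 9cRA arrays, 1.79, 1.85 and 1.71 on the day 6 control arrays and 2.54, 2.58 and 2.79 on the day 0 arrays. Every retinoid array stood above every control and day 0 array, the day 6 control arrays were the lowest of all, and the retinoid groups overlapped each other. On the linear scale this is 60.6 to 65.7 times the 75th percentile signal with ATRA and 58.9 to 67.7 times with 9cRA, against 3.28 to 3.59 times in day 6 control and 5.82 to 6.94 times at day 0.

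Against day 6 control, SPP1 rose 18.3-fold with ATRA (95% interval 16.1 to 20.7, adjusted p = 3.12e-10 by limma) and 18.6-fold with 9cRA (16.4 to 21.02, adjusted p = 3.45e-10). Among 31205 tested probes, 72 had a larger difference with ATRA and 62 with 9cRA. Within the slide that held ATRA and day 6 control arrays, the log2 difference was 4.16, against 4.19 over all arrays. The day 6 control level was itself 1.81-fold below day 0, a log2 difference of -0.85 ± 0.08 (SE, adjusted p = 5.84e-06), so the retinoid groups stood 10.1-fold (ATRA) and 10.3-fold (9cRA) above day 0.

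Macrophage and leukocyte markers rose alongside SPP1 with the retinoids. Of 8 markers, 5 were tested and all 5 rose with each retinoid, where 21.9% (ATRA) and 22.7% (9cRA) of all tested probes were called higher. CD163, AIF1 and ITGAM were well above background on 0 of 12 arrays. The summed linear signal of all 8 ran from 4.28 to 4.47 times the 75th percentile with ATRA and from 3.99 to 4.41 with 9cRA, against 1.53 to 2.28 in day 6 control and 2.07 to 2.38 at day 0. PTPRC and CD14 were the brightest of the 8 with the retinoids and made up most of these sums. Their mean log2 signals were 1.19 and 0.69 with ATRA and 1.11 and 0.71 with 9cRA. CD14, a lipopolysaccharide co-receptor, rose by 2.31 ± 0.09 with ATRA and 2.33 ± 0.09 with 9cRA, and the leukocyte phosphatase PTPRC by 0.86 ± 0.19 with ATRA and 0.78 ± 0.19 with 9cRA (log2, SE). CD14 and PTPRC kept these calls with slide as a block, as CSF1R did for ATRA, whereas CD68 and TYROBP lost theirs with both retinoids and CSF1R with 9cRA (adjusted p = 0.10). In day 6 control against day 0, where SPP1 fell, 1 of the 5 tested markers rose and 2 fell. Of all tested probes, 28.6% were called higher there and 33.2% lower. CD14 had a mean log2 signal of -1.62 in day 6 control and -3.51 at day 0. Whether macrophages or leukocytes were present, and any part of theirs in the SPP1 signal, was not tested. In these bulk samples more cells of a type and more RNA per cell cannot be told apart.

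IBSP, which lies near SPP1 on chromosome 6 (probe at 38309644 to 38309703, minus strand) and encodes a related bone matrix glycoprotein, was read well above background by none of the 12 arrays. Its log2 signal ran from -8.40 to -7.28 over the 12 arrays.

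MGP, the calcification inhibitor, also rose with both retinoids, and it did so on each of the 5 probes designed on its RefSeq transcript. The brightest probe, on chromosome 5 at 95459924 to 95459983 (plus strand), represents the gene. Its log2 signal was 7.23, 7.22 and 7.31 on the ATRA arrays, 7.19, 7.28 and 7.29 on the 9cRA arrays, 4.75, 4.66 and 4.52 on the day 6 control arrays and 4.08, 4.10 and 4.26 on the day 0 arrays. The groups stepped up in order, with day 0 below day 6 control and both below the retinoid groups, which overlapped. On the linear scale the highest retinoid array reached 158.8 times the 75th percentile signal, and no spot was saturated.

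MGP rose 6.11-fold with ATRA (log2 difference 2.61 ± 0.07, adjusted p = 1.99e-09 by limma) and 6.13-fold with 9cRA (2.62 ± 0.07, adjusted p = 2.13e-09). Over the 5 probes the log2 differences from day 6 control ranged from 2.61 to 3.08 with ATRA and from 2.62 to 3.19 with 9cRA. Day 6 control exceeded day 0 by 0.50 ± 0.07 (adjusted p = 0.000157), a 1.41-fold rise, with a range of 0.40 to 0.50 over the probes. This smaller rise was 0.60 within the slide shared by day 0 and day 6 control, where it rests on day 6 control array 1 alone.

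Endothelial markers were set beside MGP because vessels also make it. Of 5, 3 were tested, and VWF (von Willebrand factor) rose by 2.34 ± 0.11 with ATRA and 1.96 ± 0.11 with 9cRA, calls that remained with slide as a block. TEK rose with ATRA (0.43 ± 0.15, adjusted p = 0.0363, a call lost with slide as a block at adjusted p = 0.22) and was at 0.21 ± 0.15 with 9cRA (adjusted p = 0.273), and KDR was not called with either. The summed linear signal of the 5 markers ran from 0.458 to 0.543 times the 75th percentile with ATRA and from 0.388 to 0.494 with 9cRA, against 0.166 to 0.241 in day 6 control and 0.129 to 0.150 at day 0. None of the 12 arrays read the junction protein PECAM1 well above background, and 1 9cRA array did so for CDH5 (VE-cadherin). Whether endothelial cells were present, and any part of theirs in the MGP signal, was not tested.

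The MGP probes are not independent measurements. Both upstream probes are shown to make this visible, with the 30 bases they share in capitals.
MGP probe at base 101 of the transcript: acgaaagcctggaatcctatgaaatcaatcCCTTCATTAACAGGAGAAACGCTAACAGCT
MGP probe at base 131 of the transcript: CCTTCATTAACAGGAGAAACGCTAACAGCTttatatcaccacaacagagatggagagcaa
The first spans 919 bases of the genome (chromosome 5, 95458051 to 95458969), so its 60 bases are not contiguous there, and the second lies at 95458940 to 95458999. On the first, the log2 signal averaged 5.07 ± 0.04 with ATRA, 5.15 ± 0.21 with 9cRA, 2.05 ± 0.22 in day 6 control and 1.62 ± 0.10 at day 0. A pair of downstream probes likewise shares 48 bases. The sixth probe named MGP was designed on an expressed sequence tag with no listed position, and none of the 12 arrays read it well above background.

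ALPL, whose phosphatase opens the way to mineral deposition, was detected only in the retinoid groups, and by 1 of its 3 probes. On that probe (chromosome 2, 131791696 to 131791755, minus strand) the log2 signal was -3.92, -3.87 and -3.94 on the ATRA arrays and -3.61, -3.54 and -3.83 on the 9cRA arrays, all well above background. It was -7.22, -8.45 and -8.40 on the day 6 control arrays and -6.99, -8.33 and -8.27 on the day 0 arrays, none of them well above background. Retinoid arrays thus lay far above both other groups, though well below the 75th percentile.

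A probe below background has only a bound, so each dim array was set at the lowest signal among its probes well above background, or at the probe's own signal where higher. By this bound ALPL was at least 3.62-fold higher with ATRA than in day 6 control and at least 4.31-fold higher with 9cRA. The limma test was of the measured differences, not of the bounds (adjusted p = 9.82e-06 for ATRA and adjusted p = 6.84e-06 for 9cRA). This probe was tested only because the retinoid arrays, where it was high, read it well above background. Its call is therefore not independent of the filter. The bounds hold for this scaling: with normexp background correction and an offset of 50, which draws dim signals together, the log2 difference was 1.28 for ATRA and 1.38 for 9cRA, still called but below the bounds of 1.86 and 2.11 on the log2 scale. Relative to day 0 it was at least 4.56-fold higher with ATRA and at least 5.42-fold higher with 9cRA. The other ALPL probes did not show the rise: one (131792641 to 131793558) was well above background on 0 of 12 arrays, and the other on ATRA array 3 alone, at -4.86. That last probe has a listed interval of 26 bases, shorter than its 60 bases.

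TNFRSF11B, the decoy receptor, was close to undetected. Of its 2 probes on chromosome 14, the one at 47460463 to 47460522 was well above background on 0 of 12 arrays. The one at 47460312 to 47460371 was so on day 6 control array 1 alone, at -4.05, against -8.40 to -6.47 on the other arrays. That is the array with the 103 non-uniform spots. Its ligand TNFSF11 (RANKL) was well above background on 1 ATRA and 1 day 0 array, and the signalling receptor TNFRSF11A (RANK) on 1 day 6 control array, so none of the 3 was tested.

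ACAN moved in the other direction from SPP1 and MGP with the retinoids: it fell. Both probes lie on chromosome 21 (plus strand), at 20851594 to 20851653 and 20836802 to 20836861, and start at bases 6637 and 1619 of the transcript. They are shown because they differ in how firmly they carry the fall, at the same GC content of 55%.
ACAN probe at base 6637: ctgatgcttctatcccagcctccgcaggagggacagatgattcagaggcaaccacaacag
ACAN probe at base 1619: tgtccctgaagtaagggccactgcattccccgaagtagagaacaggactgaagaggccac
On the probe at base 6637 the log2 signal was -4.67, -4.77 and -4.65 on the ATRA arrays, -4.92, -5.25 and -5.00 on the 9cRA arrays, -2.73, -3.01 and -2.49 on the day 6 control arrays and -1.21, -1.15 and -0.90 on the day 0 arrays. No array of one group reached into the range of another.

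On that probe ACAN differed from day 6 control by -1.95 ± 0.14 with ATRA, 3.87-fold lower (adjusted p = 1.29e-06 by limma), and by -2.31 ± 0.14 with 9cRA, 4.97-fold lower (adjusted p = 3.80e-07). With normexp background correction the differences were -1.11 for ATRA and -1.33 for 9cRA, both still called. Day 6 control was already 3.16-fold below day 0 (-1.66 ± 0.14, adjusted p = 2.23e-06), which placed the retinoid groups 12.2-fold (ATRA) and 15.7-fold (9cRA) below the start of culture. Among the 31205 tested probes, 87 lay further below day 0 with ATRA and 49 with 9cRA.

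The ACAN probe at base 1619 was well above background on the 3 day 0 arrays (-5.44, -5.17 and -4.86), on day 6 control array 3 (-5.79) and on no retinoid array. It was called lower in day 6 control than at day 0 (adjusted p = 0.0121), with no size given because 2 of the 3 day 6 control arrays were not well above background. By the bound described for ALPL it was at least 1.60-fold lower with ATRA and at least 1.43-fold lower with 9cRA than at day 0. Its measured differences from day 6 control did not pass, at -0.82 for ATRA (adjusted p = 0.0835) and -0.65 for 9cRA (adjusted p = 0.158).

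COMP gave different answers on its 2 probes, shown here with their positions on chromosome 7 (plus strand), 4357034 to 4357186 and 4361022 to 4361721.
COMP probe at base 589: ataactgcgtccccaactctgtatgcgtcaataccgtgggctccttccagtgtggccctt
COMP probe at base 2093: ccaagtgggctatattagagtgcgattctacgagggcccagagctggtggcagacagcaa
The probe at base 589, the brighter on average, averaged -4.28 ± 0.31 with ATRA, -4.11 ± 0.10 with 9cRA, -4.30 ± 0.17 in day 6 control and -3.71 ± 0.99 at day 0. The groups overlapped and no comparison passed. The day 0 spread comes from array 3, at -2.57, beside -4.36 and -4.19 on the others. Without that array the day 6 control minus day 0 difference was -0.03, against -0.60 with it.

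On the COMP probe at base 2093 the log2 signal was -5.07, -5.01 and -4.91 on the ATRA arrays, -4.53, -4.68 and -5.01 on the 9cRA arrays, -5.35, -5.37 and -5.24 on the day 6 control arrays and -5.94, -6.04 and -6.23 on the day 0 arrays. Day 0 was lowest and the retinoid groups highest, but 1 day 6 control array and 2 day 0 arrays were not well above background. This probe was called higher in day 6 control than at day 0 (adjusted p = 0.000258), with no size given for that reason. As measured, it was higher than day 6 control with ATRA (0.32 ± 0.12, adjusted p = 0.046) and with 9cRA (0.58 ± 0.12, adjusted p = 0.00249). With slide as a block the retinoid differences no longer passed, at adjusted p = 0.216 for ATRA and adjusted p = 0.236 for 9cRA.

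**Figure D1:**
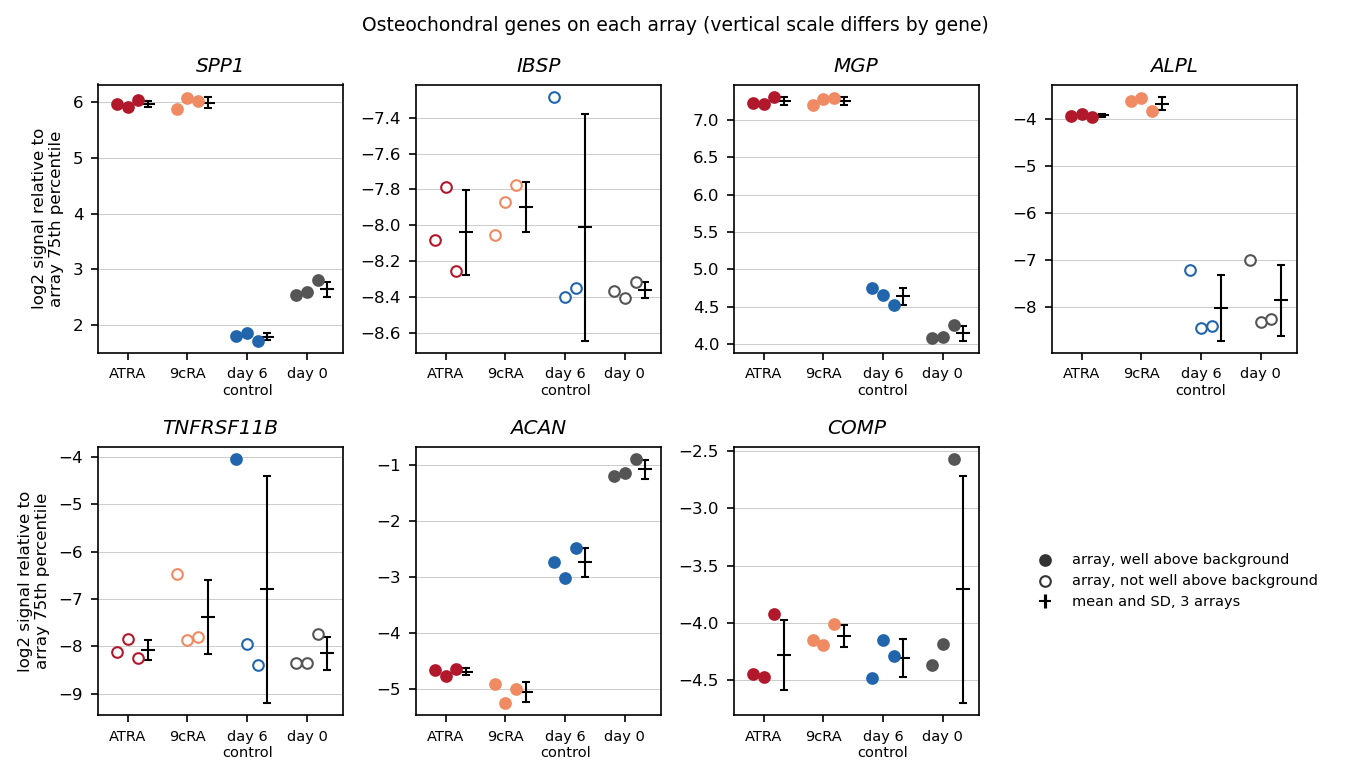
Log2 signal relative to the 75th percentile of the array (vertical axis, scale set per gene) on each array of the ATRA, 9cRA, day 6 control and day 0 groups, for the probe that represents each of the 7 genes. Filled points are arrays well above background, open points are not, and bars are the mean and SD of 3 arrays. SPP1 and MGP stand higher with both retinoids, ALPL is filled in the retinoid groups alone, and ACAN is highest at day 0 and lowest with the retinoids.

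Counted by gene, 5 genes could be tested in each comparison. With ATRA, SPP1, MGP and ALPL rose, ACAN fell and COMP was not called, 4 of 5 genes, where 43.5% of all tested probes were called (21.9% higher and 21.6% lower). With 9cRA, SPP1, MGP and ALPL rose, ACAN fell and COMP was not called, again 4 of 5 genes, where 43.5% of all probes were called (22.7% higher, 20.8% lower). These comparisons share the day 6 control arrays. ALPL is in these counts, and in those against day 0, only because the retinoid arrays read it well above background. With ALPL included, the median log2 difference of the 5 genes was 2.61 with ATRA and 2.62 with 9cRA, beside 0.04 and 0.05 over all tested probes. Each of these medians is the value of MGP and depends on ALPL being counted. No shift of the genes as a set was tested.

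Over culture without retinoid, day 6 control against day 0, MGP rose, SPP1 and ACAN fell, and ALPL and COMP were not called. That is 3 of 5 genes, where 61.7% of all probes were called (28.6% higher, 33.2% lower). The median of -0.60, beside -0.03 over all probes, is the value of the brighter COMP probe. That value was not called and rests on day 0 array 3. Because every day 6 group was in adipogenic medium, its effect and that of 6 days in culture cannot be told apart.

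Relative to day 0, SPP1, MGP and ALPL were higher and ACAN lower with each retinoid, 4 of 5 genes. Of all probes, 70.4% were called with ATRA (35.4% higher, 35% lower) and 69.8% with 9cRA (35.7% higher, 34.1% lower). Of the 11 tested probes, 9 had arrays that did not overlap between ATRA and day 6 control, 9 between 9cRA and day 6 control and 9 between day 6 control and day 0, where 52.3%, 51.7% and 67% of all tested probes did not overlap. Between each retinoid and day 0 it was 10 of 11 probes, where 77.7% (ATRA) and 77.4% (9cRA) of all tested probes did not overlap, and between ATRA and 9cRA 2 of 11, where 16.5% did not.

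**Figure D2:**
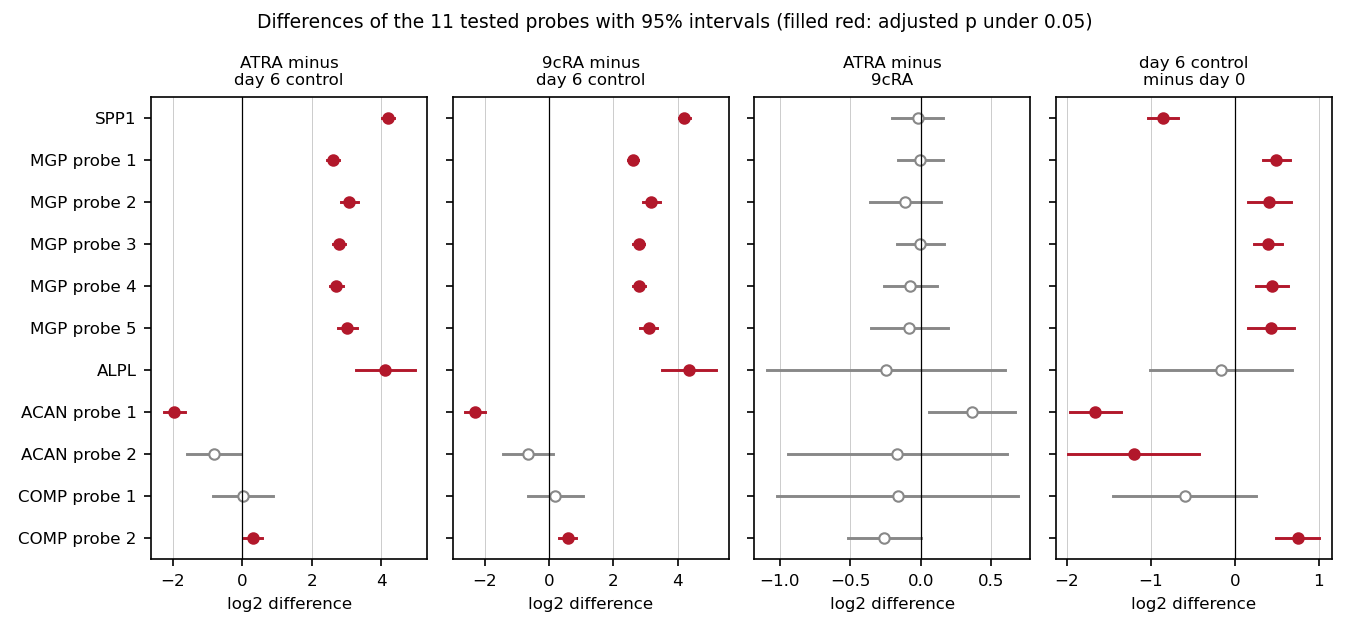
Log2 differences (horizontal axes, scale set per panel) of the 11 tested probes with 95% intervals, for ATRA minus day 6 control, 9cRA minus day 6 control, ATRA minus 9cRA and day 6 control minus day 0. Filled red points passed an adjusted p under 0.05. The SPP1, MGP and ALPL probes lie to the right of 0 with both retinoids and the first ACAN probe to the left, while no probe passed between ATRA and 9cRA.

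ATRA and 9cRA, which differ in the geometry of 1 double bond, were compared directly at the same dose and day, 1 pair of compounds. None of the 5 genes differed by limma at an adjusted p under 0.05, and 1 of them (ACAN) did at an unadjusted p under 0.05. Over all tested probes 47 were called, 0.151% (0.0993% higher with ATRA and 0.0513% lower), and 3171 had an unadjusted p under 0.05. The log2 difference of ATRA minus 9cRA was -0.02 for SPP1 (95% interval -0.20 to 0.15, adjusted p = 0.961) and -0.004 for MGP (-0.16 to 0.16, adjusted p = 0.994). For ACAN it was 0.36 (0.06 to 0.67, adjusted p = 0.413), with every ATRA array above every 9cRA array. For ALPL it was -0.25 (-1.09 to 0.59), with every ATRA array below every 9cRA array. The ALPL interval rests on a spread shared by all 4 groups, whose SDs were 0.03 (ATRA), 0.15 (9cRA), 0.70 (day 6 control) and 0.75 (day 0), the last 2 from arrays not well above background. For COMP it was -0.17 (-1.02 to 0.69) on the brighter probe and -0.26 (-0.52 to 0.002) on the other, neither called. A difference between the isomers within the ALPL and COMP intervals was not detectable in this fit, which pools the spread of all 4 groups.

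Partners of the 9 genes, among them the receptors of SPP1, did not move as a block. Of 15 such partners, 11 were tested: with ATRA 2 rose and 7 fell, with 9cRA 2 rose and 6 fell, and in day 6 control against day 0, 4 rose and 3 fell. Over all tested probes 43.5% were called with each retinoid and 61.7% in day 6 control against day 0. These shares also stand beside the endothelial markers above and the list counts that follow. Of the tested SPP1 receptors, ITGB3 rose and ITGAV, ITGB1, ITGB5, ITGA9 and CD44 fell with both retinoids. The median log2 difference was -0.37 with ATRA and -0.28 with 9cRA, beside 0.04 and 0.05 over all tested probes. ITGB3, the beta 3 chain of the osteopontin and vitronectin receptor, rose by 1.94 ± 0.15 with ATRA (adjusted p = 2.23e-06) and 1.80 ± 0.15 with 9cRA (adjusted p = 4.22e-06). Its usual alpha chain ITGAV fell, at -0.85 ± 0.08 with ATRA and -0.75 ± 0.08 with 9cRA. ITGA9, the alpha chain of another osteopontin receptor, had the largest fall of the list, at -2.46 ± 0.09 with ATRA and -2.32 ± 0.09 with 9cRA. All tested probes of ITGB3, ITGAV and ITGA9 passed in these directions with both retinoids.

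CD44, a receptor for hyaluronan and osteopontin, differed by -0.81 ± 0.08 with ATRA and -0.80 ± 0.08 with 9cRA, and ITGB1 and ITGB5 also fell, though ITGB1 lost its 9cRA call with slide as a block (adjusted p = 0.0825). Of the bone morphogenetic proteins, whose action MGP is known to restrain, BMP4 fell, at -1.49 ± 0.06 with ATRA and -1.45 ± 0.06 with 9cRA, after it had risen by 1.26 ± 0.06 over culture without retinoid. BMP2 fell slightly with ATRA (-0.27 ± 0.07, adjusted p = 0.00788) and was at -0.08 ± 0.07 with 9cRA (adjusted p = 0.334). The parathyroid hormone receptor PTH1R rose with both retinoids, calls that were lost with slide as a block (adjusted p = 0.092 for ATRA and adjusted p = 0.46 for 9cRA).

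Bone transcription factors shifted in both directions, mostly by small amounts. Of 10 tested, 4 rose and 3 fell with ATRA, 5 rose and 3 fell with 9cRA, and 2 rose and 1 fell in day 6 control against day 0. Their median was 0.24 with ATRA and 0.34 with 9cRA. DLX3 was called higher on both of its probes, by 0.63 to 1.14 with ATRA and by 0.74 to 1.12 with 9cRA. The vitamin D receptor VDR rose by 0.53 ± 0.08 with ATRA and 0.71 ± 0.08 with 9cRA, and the homeobox gene MSX1 by 0.40 ± 0.05 with ATRA and 0.47 ± 0.05 with 9cRA. The TWIST genes, which restrain RUNX2 in mouse, fell with both. TWIST2 differed by -0.64 ± 0.06 with ATRA and -0.54 ± 0.06 with 9cRA, and TWIST1 by -0.32 ± 0.05 with ATRA and -0.27 ± 0.05 with 9cRA. SP7, the osteoblast factor downstream of RUNX2, was at 0.22 ± 0.28 with ATRA (adjusted p = 0.547) and 0.48 ± 0.28 with 9cRA (adjusted p = 0.186). DLX5 was not tested.

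With slide as a block the 9cRA counts of this list became 2 higher and 2 lower, with DLX3, MSX2, CBFB and ATF4 lost, and the ATRA counts 3 and 3, with MSX2 lost.

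Of 6 cartilage transcription factors, none rose and 2 fell with each retinoid, and 3 rose over culture without retinoid, with medians of -0.05 (ATRA), -0.06 (9cRA) and 0.21 (day 6 control against day 0). With slide as a block RUNX3 lost its calls for 9cRA (adjusted p = 0.5) and for day 6 control against day 0 (adjusted p = 0.222), which left 1 lower with 9cRA and 2 higher over culture. TRPS1, a repressor in the growth plate, fell, at -0.56 ± 0.06 with ATRA and -0.62 ± 0.06 with 9cRA. SOX5, a partner of SOX9, rose by 1.69 ± 0.09 in day 6 control against day 0 (adjusted p = 8.80e-08) and was at 0.05 ± 0.09 with ATRA and 0.15 ± 0.09 with 9cRA relative to day 6 control.

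Other bone matrix genes did not follow SPP1. Of 7 genes, DMP1, MEPE, PHEX and SOST, products of osteocytes, were well above background on 0 of 12 arrays. Counted by the probe that represents each gene, of the 3 tested none rose and 1 fell with each retinoid. That was OMD, osteomodulin, at -0.59 ± 0.11 with ATRA and -0.54 ± 0.11 with 9cRA, after a rise of 2.68 ± 0.11 over culture without retinoid (adjusted p = 1.39e-08). Osteocalcin (BGLAP) was at 0.12 ± 0.07 with ATRA (adjusted p = 0.191) and 0.09 ± 0.07 with 9cRA (adjusted p = 0.321). SPARC was not called on its representing probe. Of its 6 probes, 3 were called lower with ATRA and 2 with 9cRA, and 0 higher.

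Among cartilage matrix genes, 9 of 19 were tested, and with ATRA 2 rose and 4 fell, with 9cRA 3 rose and 4 fell, with medians of 0.10 (ATRA) and 0.09 (9cRA). PRG4 (lubricin), tested on 1 of its 2 probes, fell, at -4.63 ± 0.42 with ATRA and -4.34 ± 0.42 with 9cRA. EPYC (epiphycan) fell too, at -1.15 ± 0.20 with ATRA and -1.38 ± 0.20 with 9cRA. COL11A1, a chain of the fibrils of cartilage, fell on all 8 of its probes, whose differences ran from -1.06 to -0.76 with ATRA and from -0.97 to -0.73 with 9cRA. The cartilage collagen COL2A1 was tested on 1 of its 4 probes. There it was at 0.10 ± 0.18 with ATRA (adjusted p = 0.699) and 0.09 ± 0.18 with 9cRA (adjusted p = 0.717). Over culture without retinoid 5 rose and 2 fell, among them SCRG1 (3.11 ± 0.09) and PRG4, for which no size is given because only 1 of 3 day 0 arrays was well above background. With slide as a block the counts became 1 higher and 4 lower with ATRA, 0 higher and 3 lower with 9cRA, and 4 higher and 3 lower in day 6 control against day 0. FRZB, a secreted Wnt antagonist, lost its call in all 3, at adjusted p = 0.0841 for ATRA, 0.302 for 9cRA and 0.831 for day 6 control against day 0.

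Of 9 tested genes for mineralization and phosphate control, 2 rose and none fell with each retinoid, counted by the representing probe. Their medians were -0.01 (ATRA) and 0.24 (9cRA). Other probes did not all follow these counts: with each retinoid NT5E was called lower on 2 of 4 and GGCX on 1 of 2. PHOSPHO1 was called higher on 1 of 2 with 9cRA. The phosphate transporter SLC20A1 rose by 1.12 ± 0.07 with ATRA (adjusted p = 5.94e-07) and 1.20 ± 0.07 with 9cRA (adjusted p = 3.62e-07), and on all 3 of its probes. ENPP1, which makes the pyrophosphate that ALPL removes, rose by 0.51 ± 0.14 with ATRA and 0.50 ± 0.14 with 9cRA, calls that were lost with slide as a block (adjusted p = 0.06 for ATRA and adjusted p = 0.22 for 9cRA). Over culture without retinoid ENPP1 rose by 4.75 ± 0.14 and SLC20A1 fell by 1.78 on the log2 scale, 1 of 9 genes higher and 4 lower. ANKH, the pyrophosphate exporter, was among the 4 (-0.81 ± 0.09) and was at -0.16 ± 0.09 with ATRA (adjusted p = 0.202) and -0.24 ± 0.09 with 9cRA (adjusted p = 0.0613).

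Osteoclast markers gave no single direction. Of 3 tested, ACP5 (tartrate-resistant acid phosphatase) rose by 0.64 ± 0.08 with ATRA and 0.52 ± 0.08 with 9cRA, cathepsin K (CTSK) fell, at -0.54 ± 0.11 with ATRA and -0.43 ± 0.11 with 9cRA, and MMP9 was not called. With slide as a block both 9cRA calls were lost (ACP5 adjusted p = 0.085, CTSK adjusted p = 0.058). In day 6 control against day 0, ACP5 differed by -2.02 ± 0.08 and CTSK by -2.69 ± 0.11, both called. None of the genes in these lists was called between ATRA and 9cRA.

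**Figure D3:**
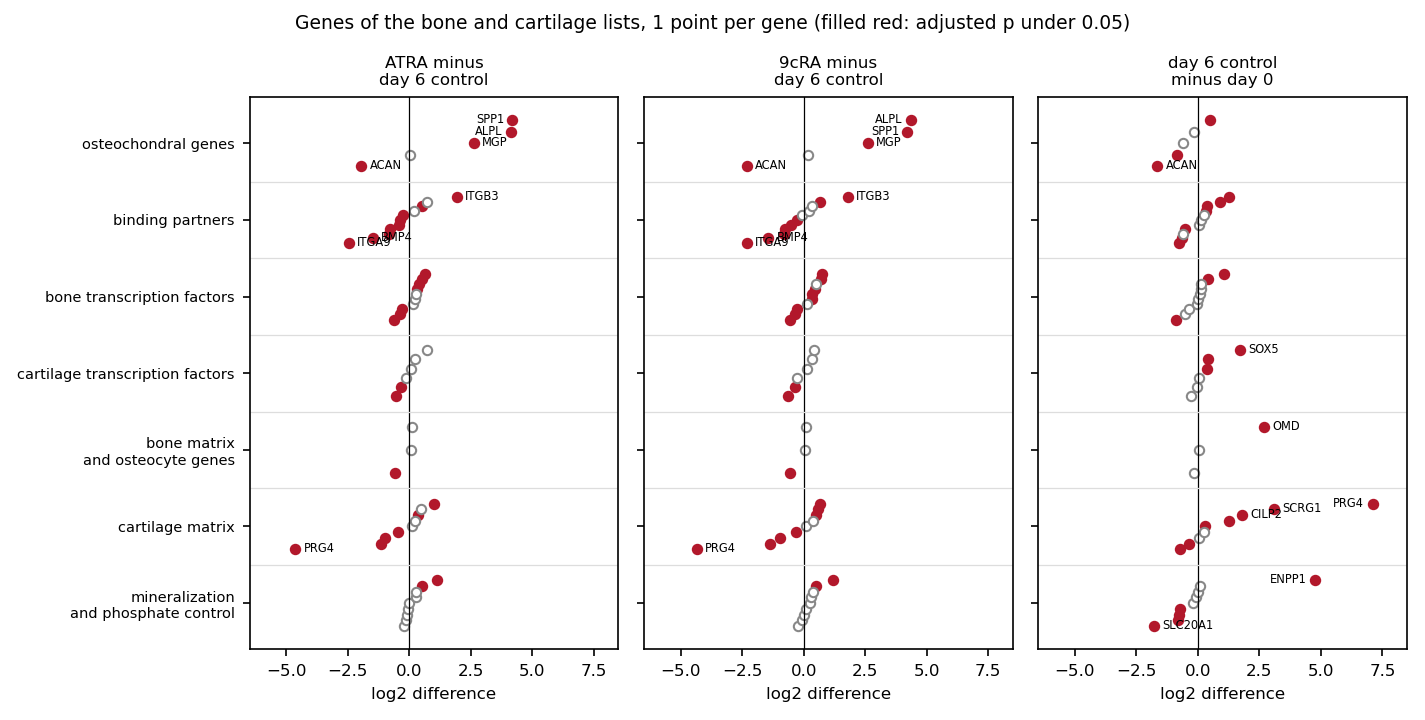
Log2 differences (horizontal axes) of each tested gene of the osteochondral genes, their binding partners and the bone, cartilage and mineralization lists (rows), for ATRA minus day 6 control, 9cRA minus day 6 control and day 6 control minus day 0. Filled red points passed an adjusted p under 0.05, and called genes beyond 1.4 on the log2 scale are named. SPP1, ALPL, MGP and ITGB3 lie far to the right with both retinoids, PRG4, ITGA9 and ACAN far to the left.

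Finally, profiles over the 12 arrays were set against those of 10573 named genes well above background on every array, as a description with no test, since the arrays share group, slide and scaling. The profile most like SPP1 was that of VSIR, an immune checkpoint receptor (Pearson r = 0.998), followed by the adenosine receptor ADORA2B (0.997) and the sheddase ADAM10 (0.996). VSIR had a log2 signal of 2.76 with ATRA, 2.72 with 9cRA, -0.12 in day 6 control and 0.46 at day 0, and so was lowest in day 6 control, as SPP1 was. The profiles most like MGP were those of HERPUD1, of endoplasmic reticulum protein degradation (0.997), CHIC2 (0.997) and the monocarboxylate transporter SLC16A7 (0.997). Those most like ACAN were COL16A1, a fibril-associated collagen (0.995), RUSC2 (0.993) and SIPA1L2 (0.993). The gene in place 100 still reached 0.969 for SPP1, 0.979 for MGP and 0.982 for ACAN, so many genes share each shape. For COMP the likeness was lower (FYTTD1, 0.890, then TSNAXIP1, 0.875, and KIF20B, 0.852) and follows the single high day 0 array.

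**Figure D4:**
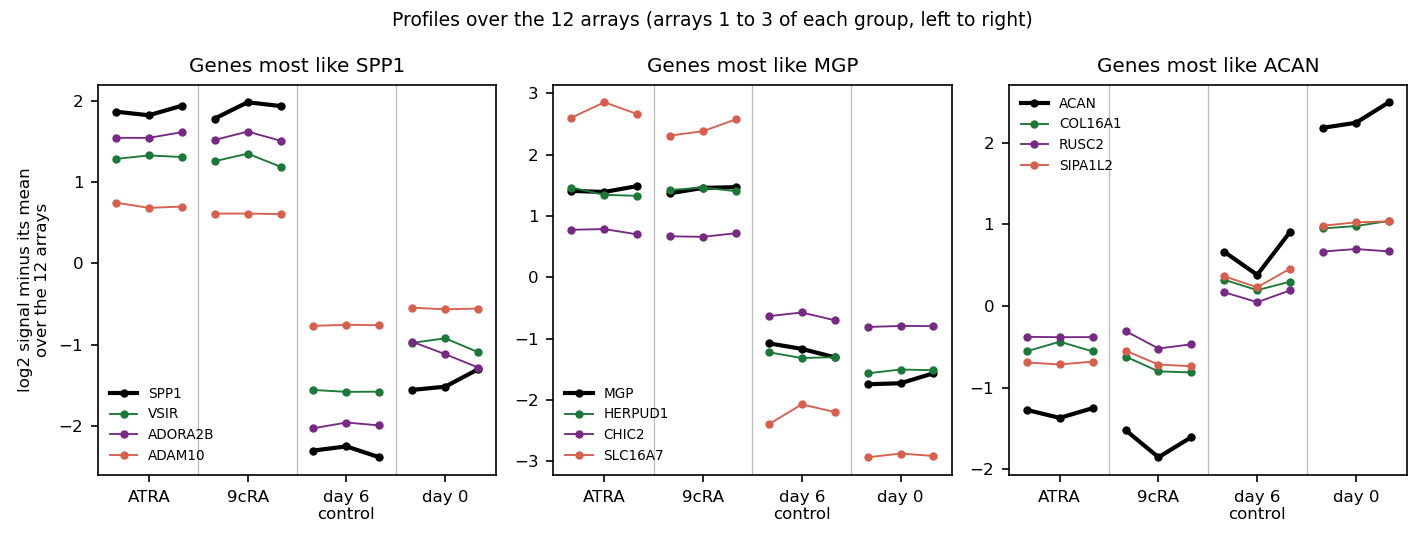
Log2 signal minus its mean over the 12 arrays (vertical axis) on arrays 1 to 3 of the ATRA, 9cRA, day 6 control and day 0 groups (horizontal axis), for SPP1, MGP and ACAN (black) and the 3 genes most like each (colours). The SPP1 set is lowest in day 6 control, the MGP set lowest at day 0, and the ACAN set highest at day 0 and lowest with the retinoids.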

How the data were processed

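RNA (100 ng per array) was amplified from a poly-dT primer and labelled with Cy3, per the labels' protocols, and read on 1-colour Agilent arrays. The scanner files hold the spot intensity on a linear scale, as the authors deposited it from Feature Extraction 10.7.3.1, background-subtracted per the file headers. The authors' deposited table of log2 values, 1 column per group, covered the same 31205 probes tested here. Set against the arrays, its scale (log2) and centring (each probe's median) were settled from the values, with column medians of 0.01 (ATRA), 0.02 (9cRA), -0.01 (day 6 control) and 0.01 (day 0), and it was used as an alternative.

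The processed intensity of each spot was divided by its array's 75th percentile and put on the log2 scale. Of 45220 spots per array, 1417 control spots were left out, as were 191 outlier spots over all arrays. Spots of a probe were averaged. A gene is represented by its probe with the highest mean over the 12 arrays. Probes that all 3 arrays of some group read well above background were tested with limma 3.58.1 in R 4.3.3 (lmFit and eBayes, means of the 4 groups, all 12 arrays, two-sided), and the p-values Benjamini-Hochberg adjusted over 31205 probes and called under 0.05. Positions are those of the array annotation on UMD3.1, which does not give exon or intron. Of 43653 probes, 26743 were named through an accession in a table of RefSeq genes (ARS-UCD2.0, used for names only), 5971 carried a current symbol, 141 an older one and 10798 kept the file's name.

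All 9 genes are described with every probe. From each list, up to 4 called genes with the smallest adjusted p are named, as are TNFSF11, TNFRSF11A, ENPP1, ANKH, BGLAP, SP7, COL2A1 and BMP2, and the 3 genes most like each gene detected on all arrays. Genes named outside this rule, for the size of their change or for probes lost to background or to the slide block, were chosen after their values were seen. The genes, lists and tests were chosen with earlier results of these data known. Alternatives were quantile and median scaling, normexp background with an offset of 50, other filters, 1 probe per gene or the mean of its probes, an intensity trend, slide as a block, the authors' table and leaving out each array. The fit was also run on simulated data for ATRA against day 6 control with 31205 probes. Of these, 67 were changed 1.5-fold, 67 2-fold and 66 4-fold, with independent noise and no slide effect. There limma recovered 64.2% at a 1.5-fold change, 83.6% at 2-fold and 98.5% at 4-fold, and called 9 unchanged probes. Far more probes were called on the real arrays, so these rates need not hold for them.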

Additional observations from a re-analysis of the deposited data

How the results depend on the processing

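No paired analysis was possible because the labels do not tie arrays of the same number across groups. Of 649 recomputed differences of the 5 tested genes, 648 kept their call, and their direction where called. In the authors' table, which has no test, this means a move smaller than the larger group SD. The other was COMP for 9cRA against day 0, at 0.46 (adjusted p = 0.0393) with the mean of both probes against -0.41, not called, with the brighter probe. Differences that were not called could change sign. COMP for 9cRA against day 6 control ran from -0.43 to 0.39, and ALPL for day 6 control against day 0 from -0.56 to 0.64. Counts of called genes kept their value except for 9cRA against day 0 with the mean of probes, 5 for 4, and for each retinoid against day 6 control and day 0 with probes well above background on all arrays, 3 for 4, where ALPL was not tested. The SPP1 differences from day 6 control ranged from 4.13 to 4.23 with ATRA and from 4.13 to 4.27 with 9cRA, those of MGP from 2.55 to 2.84 and from 2.56 to 2.90. Those of ALPL, as measured against dim arrays, reached 4.53 and 4.81 with slide as a block and were 1.28 and 1.38 with normexp, below the bounds in the report. Those of ACAN ranged from -2.09 to -1.11 and from -2.45 to -1.33, the smallest sizes with normexp.

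Counts of called probes over the whole array moved more. With slide as a block 6497 were called for 9cRA against day 6 control (13585 without), 14517 for ATRA against day 0 (21972) and 11584 for 9cRA against day 0 (21791). With 1 probe per gene, which tests fewer features, the counts were 11068 for day 6 control against day 0, 8187 for ATRA and 8253 for 9cRA against day 6 control, 12675 for ATRA and 12641 for 9cRA against day 0 and 21 for ATRA against 9cRA. ATRA against 9cRA, 47 in the first fit, gave 81 with quantile normalization, 73 with probes well above background on all arrays, 112 with an intensity trend and 0 by limma with no filter (3039 at an unadjusted p under 0.05). Leaving out 1 array gave from 0 to 63 there, with 0 without ATRA array 3 (3050 at an unadjusted p under 0.05). Median scaling put 41.2% of calls higher for 9cRA against day 0, against 51.2%, and moved the median of all probes to between -0.12 and -0.10 in the comparisons with day 0. The causes were not tested. Signal over background limits ALPL, IBSP, TNFRSF11B and the second ACAN and COMP probes.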
